A study of Mus musculus with 14 samples.

Results

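The Id proteins of the mouse are encoded by 4 genes, Id1, Id2, Id3 and Id4, and all 4 were found by symbol in every table, among 27998 gene rows in each culture table, 27144 in the table of RNA immunoprecipitations, 13338 in the fresh APLP1-/- table and 13288 in the fresh wildtype table. The study holds 14 samples of neural stem cells (NSCs) taken from the subventricular zone of adult mice, and its stated questions concern quiescent against active cells, APLP1-/- against wildtype cells, and mRNA binding by CPEB4, a cytoplasmic polyadenylation element binding protein. Single-cell libraries were made by 10x Genomics oligo(dT) capture, which counts the 3′ ends of transcripts.

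The groups were as follows. Wildtype NSCs were cultured for 3 days with BMP4, a bone morphogenetic protein used to bring these cells into quiescence, or for 3 days with EGF, a growth factor that keeps them dividing, with 1 library of each. Freshly isolated, untreated cells came from APLP1-/- mice, which lack the amyloid precursor-like protein APLP1, and from wildtype mice, with 1 library of each genotype and 3 hash tags per library, carried by antibodies to MHC1 and CD45, that mark individual mice. RNA immunoprecipitation (RIP) was done on untreated cultured neurospheres, with 2 libraries each of CPEB4 precipitate from wildtype cells, CPEB4 precipitate from cells labelled CPEB4-/-, IgG precipitate from wildtype cells and wildtype input RNA. The sources used here state neither exact ages and sexes nor whether the RIP replicates came from separate cultures, so p-values measure the spread between these samples, which may be technical.

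The BMP4 library held 887 cells with a median of 17355 counts, and the EGF library held 1410 cells with a median of 22866.5. The fresh libraries were far shallower, with a median of 424 counts in 1879 APLP1-/- cells and 364 in 2209 wildtype cells, and they shared 13 cell barcodes. RIP totals lay between 10054346 and 17466296 counts. Aplp1 had 54 counts in the APLP1-/- library and 246 in the wildtype library. Cpeb4 RNA was not lower under the CPEB4-/- label. The wildtype CPEB4 precipitates held 3109 and 1025 counts of it, and the IgG precipitates 239 and 755. The precipitates labelled CPEB4-/- held 4825 and 1285, and are called "the libraries labelled CPEB4-/-" below. These are RNA counts, and the only input RNA is wildtype, so they cannot show whether CPEB4 protein was absent.

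Id proteins are helix-loop-helix proteins that lack the basic region by which related factors touch DNA. They bind E proteins, the common partners of the basic helix-loop-helix (bHLH) factors that drive lineage commitment, and so keep those pairs off DNA. BMP receptors act through Smad proteins that switch on Id genes directly, and in the adult subventricular zone Id proteins are known for high levels in stem cells and astrocytes. Id1 and Id3 act together in blood vessel growth and in stem cell maintenance, Id2 is also used by many cells of the immune system, and Id4 is known for a role in the quiescence of adult NSCs.

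On GRCm38.p6, Id1 (ENSMUSG00000042745) spans chr2:152736251-152737410, Id2 (ENSMUSG00000020644) chr12:25093799-25096092, Id3 (ENSMUSG00000007872) chr4:136143822-136145392 and Id4 (ENSMUSG00000021379) chr13:48261116-48266028. Id1, Id2 and Id3 overlap no other annotated gene. Id4 overlaps A330033J07Rik, which had 9 counts with BMP4 and 1 with EGF. The sources used here do not say whether counting used strand, so reads of that overlap cannot be told apart.

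Promoter windows of Id2, Id3 and Id4 (RefSeq, GRCm38.p6, from 250 bases before to 50 bases after the gene start) were searched on both strands for GGCGCC, a GC-rich element that BMP Smads are known to bind, for the Smad palindrome GTCTAGAC, and for the E-box CANNTG, the site of bHLH pairs. The 3 matches are shown because Smads and bHLH pairs belong to the pathway described with the Id genes. Each line runs 5′ to 3′ on the gene's strand, with the motif in capitals.
Id2, GGCGCC, 231 bases before the start, chr12:25096306-25096335, minus strand: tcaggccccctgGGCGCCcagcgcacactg
Id4, GGCGCC, 148 bases before the start, chr13:48260956-48260985, plus strand: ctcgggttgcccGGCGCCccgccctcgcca
Id2, CANNTG, 196 bases before the start, chr12:25096271-25096300, minus strand: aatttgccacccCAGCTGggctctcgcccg
GGCGCC was present in 11.9% of 32851 promoter windows, CANNTG in 72.3% and GTCTAGAC in 0.213%. The Id3 window held none of these motifs, and the Id4 window held no CANNTG. The motifs do not overlap one another in these windows, and a match describes the letters only.

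In culture, all 4 Id genes had higher levels with BMP4 than with EGF. Id4 differed by the largest factor, and Id2 was the most abundant with BMP4. Id4 had 2873 counts, 166 CPM (counts scaled to a library total of 1000000) in the BMP4 culture and 38 counts, 1.13 CPM, in the EGF culture, a ratio of 147 (95% exact interval 107 to 208). Id1 had 6369 counts (368 CPM) with BMP4 and 667 counts (19.8 CPM) with EGF, a ratio of 18.5 (17.1 to 20.1). Id2 had 22490 counts (1299 CPM) with BMP4 and 3104 counts (92.4 CPM) with EGF, a ratio of 14.1 (13.5 to 14.6). Id3 differed least, with 12196 counts (704 CPM) with BMP4 and 6387 counts (190 CPM) with EGF, a ratio of 3.71 (3.60 to 3.82). With 1 library per condition there was no test, and these intervals, like all intervals and limits below, cover counting error only.

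A 2-fold or larger excess with BMP4 was seen in 23.1% of the 14502 genes with 10 or more counts, and a 2-fold or larger deficit in 15.4%. All 4 Id genes lay in the higher part, where Id4 ranked 45 by its ratio, Id1 349, Id2 433 and Id3 1549. The median log2 ratio over the 14502 genes was 0.15, against 7.20 for Id4, 4.21 for Id1, 3.81 for Id2 and 1.89 for Id3.

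The order of the 4 genes changed between the cultures. These are counts of 3′ ends and were not divided by transcript length. In CPM the order was Id2, Id3, Id1, Id4 with BMP4 and Id3, Id2, Id1, Id4 with EGF, and no neighbouring pair had overlapping counting intervals in either culture. Of all Id counts in the BMP4 culture, 51.2% were Id2, 27.8% Id3, 14.5% Id1 and 6.54% Id4. Of those in the EGF culture, 30.4% were Id2, 62.6% Id3, 6.54% Id1 and 0.373% Id4. Ranked by level among the 14502 genes, Id2 stood at place 122 with BMP4 and 1455 with EGF, and Id4 at 862 with BMP4 and 11752 with EGF.

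**Figure D1:**
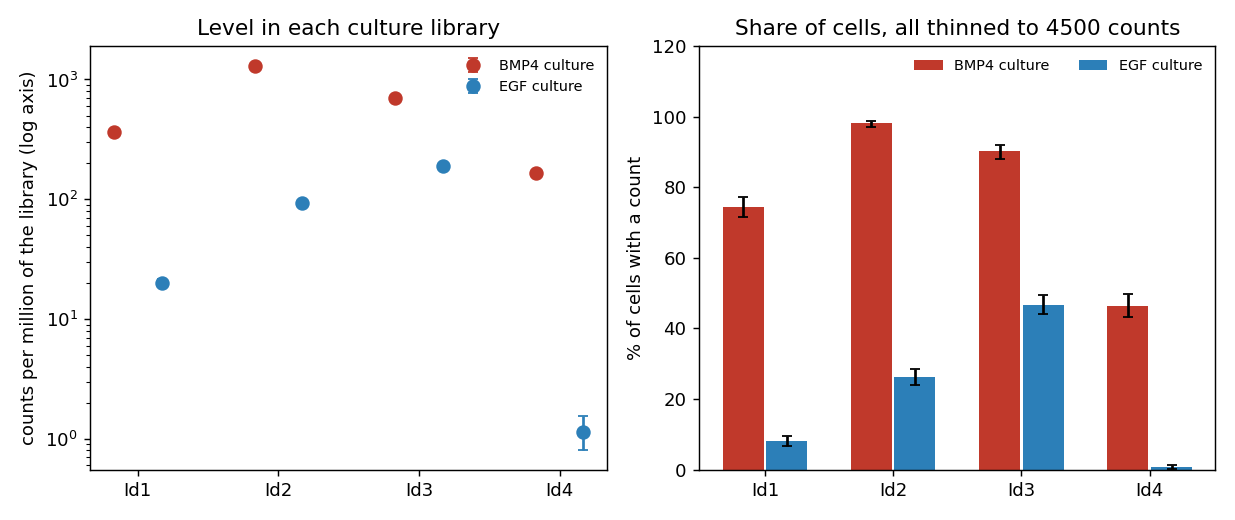
Level of each Id gene in the BMP4 and EGF cultures, as CPM of the library on a log axis with 95% exact Poisson intervals (left), and share of cells with a count after thinning to 4500 counts with 95% exact binomial intervals (right), 1 library per condition. All 4 genes stand higher with BMP4, by a ratio between 3.71 for Id3 and 147 for Id4.

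Cell by cell, Id transcripts were spread over nearly the whole BMP4 culture. A BMP4 cell held a median of 21 Id2 counts (quartiles 14 and 33, highest 111), and an EGF cell a median of 1 (quartiles 0 and 3, highest 40). The Id3 median was 12 in BMP4 cells (quartiles 7 and 19) and 3 in EGF cells (quartiles 1 and 6). The Id1 median was 6 in BMP4 cells and 0 in EGF cells, and the Id4 median 2 in BMP4 cells and 0 in EGF cells. No EGF cell held more than 1 count of Id4, while the highest BMP4 cell held 27. Id2 and Id3 were thus found at high counts in single EGF cells, up to 40 and 52, although their medians there were low.

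To compare shares of cells at equal depth, each culture cell was thinned at random to 4500 counts, and no cell was left out. Id1 was then detected in 74.5% (71.5 to 77.4) of BMP4 cells and 8.09% (6.72 to 9.63) of EGF cells. Id2 was detected in 98.1% of BMP4 cells and 26.2% of EGF cells, and Id3 in 90.2% of BMP4 cells and 46.7% of EGF cells. Id4 was detected in 46.4% of BMP4 cells and 0.638% (0.292 to 1.21) of EGF cells. Without thinning, Id1 was found in 97.5% of BMP4 and 30.8% of EGF cells, Id2 in 99.5% of BMP4 and 56.6% of EGF cells, Id3 in 99.1% of BMP4 and 80.1% of EGF cells, and Id4 in 86.7% of BMP4 and 2.70% of EGF cells. The BMP4 culture thus had the higher share for each gene at either depth, although its cells were the shallower ones. No cell type lacking Id genes was identified in these cultures, so a share from free RNA was not measured there.

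The number of Id genes detected per cell also differed between the cultures. In thinned BMP4 cells, 270 of 887 (30.4%, 27.4 to 33.6) held all 4 Id genes, 448 (50.5%) held 3, 150 (16.9%) held 2, 19 (2.14%) held 1 and 0 held none. In thinned EGF cells, 0 of 1410 held all 4 (exact upper limit 0.261%). Of these EGF cells, 8 (0.567%) held 3, 212 (15.04%) held 2, 704 (49.9%) held 1 and 486 (34.5%) held none. Without thinning, 84.2% of BMP4 cells and 0.355% of EGF cells held all 4, and 0 BMP4 cells and 6.45% of EGF cells held none.

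**Figure D2:**
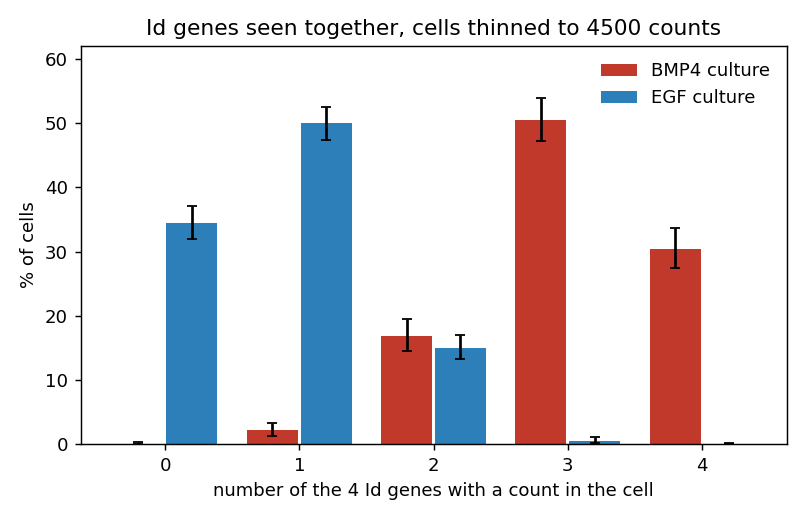
Percent of cells in each culture by the number of Id genes detected per cell after thinning every cell to 4500 counts, with 95% exact binomial intervals. BMP4 cells peak at 3 genes (50.5%) and EGF cells at 1 gene (49.9%).

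Which Id genes were found together lay close to what the single shares give if the genes were detected independently. In BMP4 cells the commonest pattern was Id1 with Id2 and Id3 (37.0%, against 35.3% if independent), and then all 4 (30.4%, against 30.6%). In EGF cells it was Id3 alone (32.2%, against 31.5%), then Id2 alone (14.8%, against 12.8%). Across BMP4 cells, Id1 and Id2, each relative to the cell's total, had a Spearman correlation of 0.27, Id1 and Id3 0.16, Id3 and Id4 0.13, and the other 3 pairs between -0.01 and 0.08. In EGF cells Id2 and Id3 ran weakly opposite (-0.13), and 10.4% of cells held both against 12.3% if independent. These are descriptions over cells that share 1 library and its depth.

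Cells with a count of Mki67, Top2a or Cdk1, genes of dividing cells, were 169 of the 887 BMP4 cells and 1112 of the 1410 EGF cells. Within the BMP4 culture, Id levels with and without these genes were 329 and 380 CPM for Id1, 1186 and 1334 for Id2, 634 and 726 for Id3, and 160 and 168 for Id4. Within the EGF culture they were 20.9 and 14.7 CPM for Id1, 89.1 and 108 for Id2, 187 and 204 for Id3, and 1.01 and 1.69 for Id4. The split by division genes moved each Id level by far less than the culture did. Among cells without these genes alone, the log2 ratio of BMP4 over EGF was 4.69 for Id1, 3.63 for Id2, 1.84 for Id3 and 6.63 for Id4.

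The genes whose counts ran most alike with an Id gene differed from one Id gene to the next. Across the 887 BMP4 cells, among 9374 genes found in 10% or more of them, Id1 was most alike to Id2 (0.27), and then to Cd9, Apoe and Hes1 (0.22 each). Id2 was most alike to Olig1 (0.30) and to Ednrb, Id1 and Cidea (0.27 each), and Id3 to Dbi (0.27) and to Apoe, Lxn and Atp5j2 (0.20 each). For Id4 no value passed 0.16, which was reached by Sncaip, P2ry1, Lhx2 and Tnc. Across the 1410 EGF cells, Id3 was most alike to Crip2 (0.27) and Cycs (0.26), Id2 to Lhfpl3 (0.26) and B3gat2 (0.25), and Id1 to Knl1 and Prc1 (0.17 each). All these Spearman values are weak, and none is given as a finding.

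The genes around the Id proteins in the pathway were read in the same 2 libraries, with the same limits, and their counts stand beside 23.1% of all genes 2-fold higher and 15.4% 2-fold lower. Of 6 BMP receptors, 4 had at least a 2-fold excess with BMP4 and 0 a deficit (median log2 ratio 1.58), among them Bmpr1a with 258 CPM with BMP4 and 49.6 with EGF and Bmpr2 with 283 CPM with BMP4 and 58.4 with EGF. Of 4 Smads that carry the signal, only Smad9 was 2-fold higher (22.4 CPM with BMP4, 0.446 with EGF), and the median was 0.02. Of 9 BMP inhibitors, 8 had enough counts, 5 were higher and 1 lower. They included the feedback inhibitors Smad7 (78.5 CPM with BMP4, 1.31 with EGF) and Smad6 (800 counts with BMP4, 3 with EGF, ratio 518, 176 to 2515) and the secreted antagonist Nog (190 CPM with BMP4, 1.34 with EGF). Of 4 ligands, 2 had enough counts, of which 1 was 2-fold higher and 1 lower. The lower one was Bmp7 (5.95 CPM with BMP4, 44.8 with EGF).

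Of the 3 E proteins, the binding partners of Id proteins, 0 were 2-fold higher and 1 was lower. Tcf12 had 74.0 CPM with BMP4 and 175 with EGF, Tcf3 had 74.6 with BMP4 and 135 with EGF, and Tcf4 had 375 with BMP4 and 444 with EGF. Of 12 bHLH lineage factors, 5 had enough counts, of which 1 was higher and 2 were lower. Olig2 was among the lower ones (151 CPM with BMP4 and 354 with EGF). Of 7 Hes and Hey repressors, a list that includes Notch targets, 5 had enough counts and 4 were higher. Examples are Hes5 (244 CPM with BMP4, 23.4 with EGF) and Hey1 (183 CPM with BMP4, 15.9 with EGF). Of 3 genes that act on Id protein turnover, 2 were lower: Usp1, a deubiquitinase that stabilises Id proteins (33.4 CPM with BMP4, 135 with EGF), and Cdc20, an activator of the anaphase-promoting complex (5.78 CPM with BMP4, 48.4 with EGF).

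Marker sums differed between the cultures beside the Id genes. The 14 quiescent NSC and astrocyte markers summed to 4377 CPM with BMP4 and 585 with EGF, the 13 markers of active cells to 385 with BMP4 and 2589 with EGF, and the 12 microglial markers to 9.99 with BMP4 and 8.75 with EGF, with 9 of 12 at 0 in each culture. The part of the marker differences in the Id differences was not tested.

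Fresh cells were sorted into classes by summed counts of marker lists that hold no Id gene, with at least 3 counts from at least 2 genes of the leading list. Quiescent NSC and astrocyte markers, which do not separate stem cells from astrocytes, led in 974 of 1879 APLP1-/- cells (51.8%) and 1463 of 2209 wildtype cells (66.2%). Markers of active NSCs led in 213 APLP1-/- and 126 wildtype cells, neuroblast markers in 215 APLP1-/- and 199 wildtype cells, and microglial markers in 35 APLP1-/- and 26 wildtype cells, while 405 APLP1-/- and 362 wildtype cells had no class. Clusters made without the Id genes were named by the marker list with most counts. Of the active class, 47 APLP1-/- and 40 wildtype cells fell in quiescent clusters. Of the neuroblast class, 33 APLP1-/- and 41 wildtype cells did so. These 2 classes thus depend in part on the way of sorting. The median total was 374 counts in APLP1-/- and 331 in wildtype quiescent cells, 1193 in APLP1-/- and 1075.5 in wildtype active cells, 539 in APLP1-/- and 513 in wildtype neuroblasts, and 353 in APLP1-/- and 359.5 in wildtype microglia.

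In both fresh libraries the quiescent class had higher Id2 and Id4 levels than active cells and neuroblasts, and Id2 made up most of its Id counts. Id2 reached 4269 CPM (2044 counts) in APLP1-/- quiescent cells and 3342 CPM (2124 counts) in wildtype quiescent cells. Id4 reached 620 CPM (297 counts) in APLP1-/- and 647 CPM (411 counts) in wildtype quiescent cells. Id3 reached 167 CPM in APLP1-/- and 132 CPM in wildtype quiescent cells, and Id1 29.2 CPM (14 counts) in APLP1-/- and 34.6 CPM (22 counts) in wildtype quiescent cells. Id2 thus held 83.9% of Id counts in APLP1-/- and 80.4% in wildtype quiescent cells, and Id4 held 12.2% in APLP1-/- and 15.6% in wildtype quiescent cells.

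Set against active cells, Id2 in the quiescent class was 25.9 times as high (19.7 to 34.7) in the APLP1-/- library, where active cells had 165 CPM, and 28.2 times as high (18.2 to 46.3) in the wildtype library, where they had 118 CPM. Id4 was 8.30 times as high (5.47 to 13.2) in the APLP1-/- library and 9.10 times (5.16 to 17.8) in the wildtype library, with 74.7 CPM in APLP1-/- and 71.0 CPM in wildtype active cells. Id3 had 80 counts in quiescent and 1 in active APLP1-/- cells (ratio 53.7, 9.36 to 2146), and 84 in quiescent and 1 in active wildtype cells (22.3, 3.90 to 892). For Id1 the interval of the ratio contained equality in both libraries (2.35, 0.737 to 9.80, in APLP1-/- and 5.85, 0.945 to 241, in wildtype). All 4 ratios passed 2-fold in both libraries, where 30.1% of 7305 genes in APLP1-/- and 32.7% of 7428 in wildtype cells did so, and 20.6% in APLP1-/- and 20.3% in wildtype cells were 2-fold or more lower.

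Levels in the quiescent class also stood above those of neuroblasts. Id2 in the quiescent class was 41.0 times (25.9 to 69.3) its 104 CPM in APLP1-/- neuroblasts and 20.01 times (13.2 to 32.0) its 167 CPM in wildtype neuroblasts. Id4 was 6.31 times (3.87 to 11.0) its 98.3 CPM in APLP1-/- neuroblasts and 4.26 times (2.72 to 7.05) its 152 CPM in wildtype neuroblasts. Id1 had 0 counts in the neuroblasts of both libraries. The exact lower limit of its quiescent over neuroblast ratio was 1.20 in APLP1-/- and 1.14 in wildtype. Id3 had 1 count in APLP1-/- neuroblasts (ratio 28.9, 5.04 to 1155) and 0 in wildtype neuroblasts (lower limit of the ratio 4.62). A 2-fold excess in quiescent cells over neuroblasts was seen in 41.0% of 6551 genes in APLP1-/- and 37.6% of 7154 in wildtype cells, and a 2-fold deficit in 16.3% in APLP1-/- and 18.1% in wildtype cells.

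Id2 and Id4 did not keep one ratio across classes. For 100 Id2 counts there were 14.5 Id4 counts in APLP1-/- and 19.4 in wildtype quiescent cells, 45.3 in APLP1-/- and 60.0 in wildtype active cells, and 94.4 in APLP1-/- and 90.9 in wildtype neuroblasts. Between quiescent cells and neuroblasts the intervals of these ratios did not overlap in either library.

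**Figure D3:**
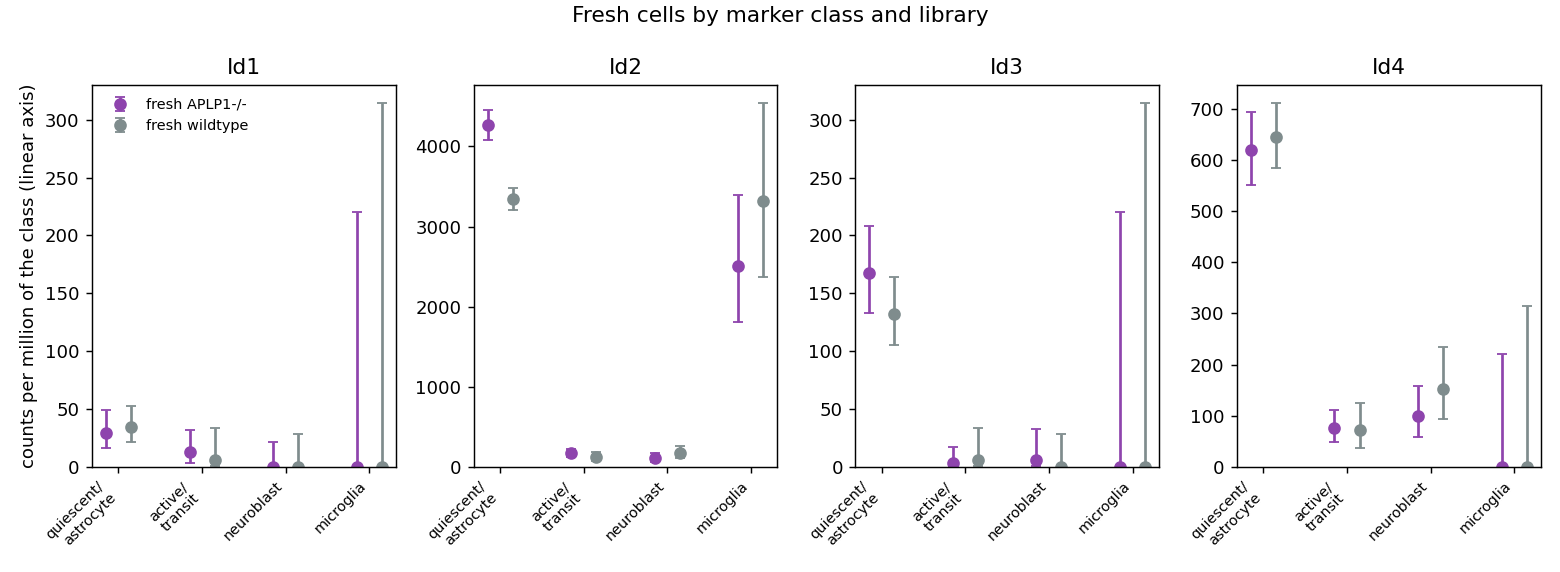
Level of each Id gene by marker class in the fresh APLP1-/- and wildtype libraries, as CPM of the class with 95% exact Poisson intervals. Quiescent cells stand highest for Id4 in both libraries, and microglia-marker cells stand near quiescent cells for Id2 while holding 0 counts of the other 3 genes.

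Cells led by microglial markers had counts of Id2 and 0 counts of the other Id genes. Id2 had 42 counts (2512 CPM, 1810 to 3395) in 35 APLP1-/- microglia and 39 counts (3325 CPM, 2364 to 4545) in 26 wildtype microglia. For Id1, Id3 and Id4, 0 counts were seen there, with exact upper limits of 221 CPM each in APLP1-/- and 314 CPM in wildtype cells. Id2 in quiescent cells was 1.70 times that of microglia in the APLP1-/- library and 1.01 times in the wildtype library. Id4 in quiescent cells was 3.46 times the level that 3 counts would give in APLP1-/- microglia, and 2.53 times that level in wildtype. For 100 Id2 counts, microglia held 0 Id4 counts (up to 9.18) in APLP1-/- and 0 (up to 9.92) in wildtype, below the intervals of the quiescent cells in the same libraries (12.8 to 16.4 in APLP1-/- and 17.4 to 21.5 in wildtype). The median summed count of quiescent markers per microglial cell was 0 in both libraries.

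Endothelial markers led in only 11 APLP1-/- and 8 wildtype cells, too few for a level. The APLP1-/- cells held 5 counts of Id1, 3 of Id2 and 4 of Id3, and the wildtype cells 4 counts of Id3 and 0 of the other Id genes. The 5 Id1 counts of those 11 cells stand beside 14 in the 974 quiescent cells of the same library.

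By share of cells, 50.6% of APLP1-/- and 45.04% of wildtype quiescent cells held an Id2 count, and 40.3% of APLP1-/- and 34.4% of wildtype cells did after thinning to 200 counts, which left out 96 APLP1-/- and 211 wildtype cells. Neuroblasts, at a greater depth, held Id2 in 5.58% of APLP1-/- and 5.53% of wildtype cells, and after thinning in 0.478% of APLP1-/- and 2.06% of wildtype cells. Microglia held it in 28.6% of APLP1-/- and 42.3% of wildtype cells (thinned, 24.2% of APLP1-/- and 36.0% of wildtype). Id4 was found in 19.7% of APLP1-/- and 16.9% of wildtype quiescent cells (thinned, 11.8% of APLP1-/- and 8.15% of wildtype), Id3 in 5.03% of APLP1-/- and 3.76% of wildtype, and Id1 in 1.33% of APLP1-/- and 0.820% of wildtype quiescent cells. Taking the neuroblast share as the background from free RNA, the Id2 shares of quiescent cells and microglia lay above it in both libraries.

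Id2 was uneven among quiescent cells. In the APLP1-/- library 44 of 974 quiescent cells held 10 or more Id2 counts, up to 50, and these 4.52% of cells held 34.1% of the Id2 counts, while 481 cells held none. In the wildtype library 37 of 1463 (2.53%) held 10 or more, up to 29, with 23.5% of the Id2 counts, and 804 held none. Depth ran along with this: cells with 10 or more Id2 counts had a median total of 830 counts in APLP1-/- and 864 in wildtype, and cells with none 335 in APLP1-/- and 288.5 in wildtype. Without thinning, Id2 and Id4 were found together in 12.5% of APLP1-/- and 9.23% of wildtype quiescent cells, against 10.0% in APLP1-/- and 7.60% in wildtype if independent. After thinning to 200 counts the shares were 5.35% in APLP1-/- and 3.12% in wildtype, against 4.78% and 2.80% if independent.

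The Id2 level did not rest on one marker. In cells grouped by each quiescent marker alone, Id2 lay between 3060 and 7848 CPM over 13 markers in the APLP1-/- library and between 2782 and 5237 CPM over 14 in the wildtype library. By each active marker alone it lay between 112 and 482 CPM over 13 markers in APLP1-/- and between 85.7 and 924 CPM over 12 in wildtype cells, so the 2 ranges did not overlap in either library. For Id4 the ranges were apart in APLP1-/- (quiescent from 414 CPM, active up to 183) but overlapped in wildtype (from 208 and up to 259). Those of Id3 overlapped in APLP1-/- only, and those of Id1 in both libraries. By each microglial marker alone, Id2 lay between 1656 and 2473 CPM over 5 markers in APLP1-/- cells. In wildtype cells it lay between 865 and 2208 CPM over 2 markers. Cells grouped in that way also held Id4, up to 286 CPM in APLP1-/- and 201 CPM in wildtype. Id3 reached 294 CPM in APLP1-/- and 48.0 CPM in wildtype. The 0 counts in microglia given above thus hold for the class called by its leading markers.

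Of the binding partners, Tcf4 stood at 1.02 times its active-cell level in APLP1-/- and 1.06 times in wildtype quiescent cells. Tcf3 stood at 0.165 times in APLP1-/- and 0.457 times in wildtype, and Tcf12 at 0.363 times in APLP1-/- and 0.628 times in wildtype. Of the 3 E proteins, 0 were thus 2-fold higher in quiescent than in active cells of either library, and 2 were 2-fold lower in APLP1-/- and 1 in wildtype cells, beside 30.1% of all genes higher in APLP1-/- and 32.7% in wildtype cells, and 20.6% lower in APLP1-/- and 20.3% in wildtype cells.

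A test over animals was possible between quiescent cells and microglia, where hash tags gave 406 APLP1-/- and 463 wildtype cells to a mouse and each of the 6 mice had 5 or more cells of both classes. Untagged cells did not enter, and tagging differed between classes. In APLP1-/- mice 92, 116 and 82 of 974 quiescent cells were tagged, but 10, 13 and 12 of 35 microglia. In wildtype mice 57, 111 and 201 of 1463 quiescent cells were tagged, but 6, 13 and 7 of 26 microglia. Tagged quiescent cells averaged 834 CPM of Id4 over the wildtype mice, against 647 CPM in all wildtype quiescent cells. In APLP1-/- these were 683 and 620 CPM. Whether tagging favours some cells of a class was not tested. In the 3 APLP1-/- mice, Id4 was at 741, 879 and 430 CPM in quiescent cells, in the 3 wildtype mice at 842, 750 and 909 CPM, and in the microglia of all 6 mice at 0. The microglia of a mouse held 2240 to 6381 counts in all, where 3 counts would be 470 to 1339 CPM. The quiescent level passed that value in 4 of the 6 mice. Exact upper limits for 0 counts were 578 to 1647 CPM, which not every quiescent level passed. Quiescent cells were higher as measured in 6 of 6 mice, by 758 ± 175 CPM (SD, n = 6 mice) without added counts. The test gave a mean difference of 2.74 in log2 CPM with 0.5 counts added (exact two-sided paired permutation test, p = 0.03125, the smallest that 6 mice allow, and 0.125 after adjustment over the 4 genes). Id4 therefore did not pass the adjusted threshold of 0.05, which 4 tests over 6 mice can pass only where at least 3 genes have that smallest p.

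Id2 was at 5824, 2541 and 3752 CPM in quiescent cells of APLP1-/- mice and at 4372, 1950 and 3672 CPM in those of wildtype mice. In microglia it was at 1097, 3300 and 3443 CPM in APLP1-/- mice and at 2679, 1840 and 6262 CPM in wildtype mice. The classes overlapped, with quiescent cells higher in 4 of 6 mice and a mean log2 difference of 0.30 (exact permutation p = 0.656, adjusted 0.875). For Id4 (0.81 with 2 counts added), Id1 (-1.96) and Id3 (0.07) the size of the log2 difference was set by the added counts, since microglia were at 0 and hold few counts. For Id1 and Id3 the sign depended on the added counts as well. Without added counts, quiescent cells were higher by 148 CPM for Id3 (5 of 6 mice) and by 30.9 CPM for Id1 (4 of 6 mice).

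**Figure D4:**
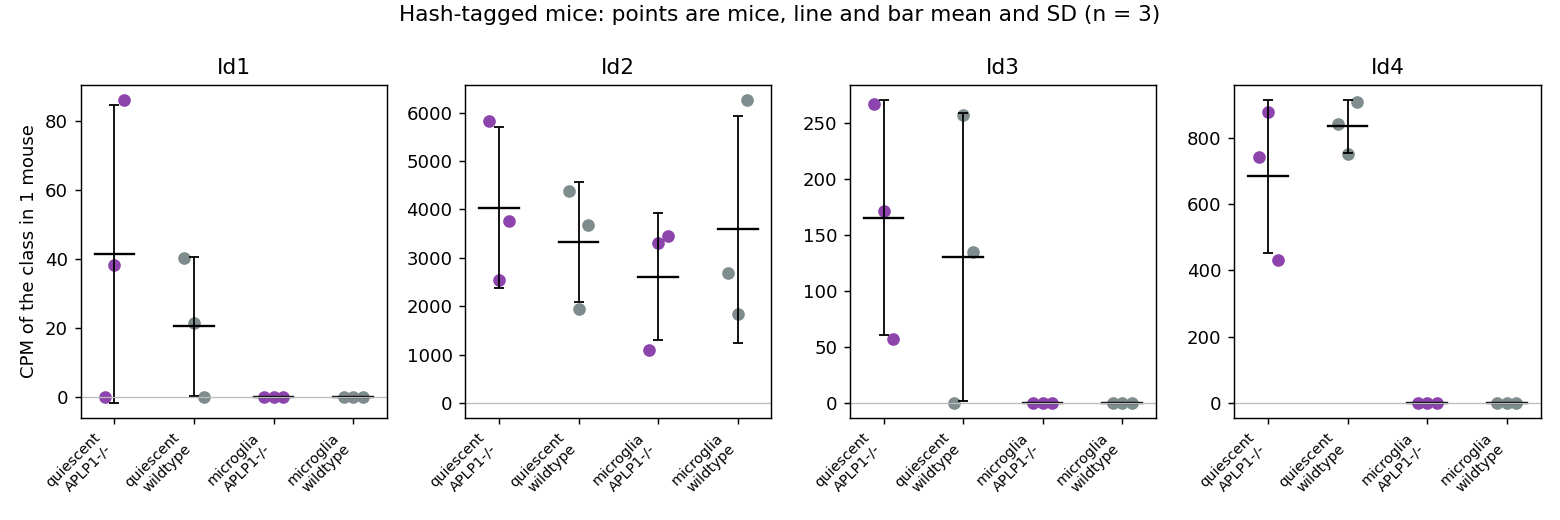
Id levels per mouse in tagged quiescent and microglia-marker cells of 3 APLP1-/- and 3 wildtype mice, in CPM, 1 point per mouse, with the mean and SD of each 3 mice. Id4 is above 0 in quiescent cells of all 6 mice and at 0 in their microglia, while the Id2 points of the 2 classes overlap.

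No difference between genotypes passed the test for an Id gene. In quiescent cells Id2 averaged 4039 ± 1660 CPM in APLP1-/- and 3331 ± 1246 CPM in wildtype mice, Id4 683 ± 230 in APLP1-/- and 834 ± 79.7 in wildtype, Id3 166 ± 105 in APLP1-/- and 131 ± 129 in wildtype, and Id1 41.4 ± 43.0 in APLP1-/- and 20.5 ± 20.1 in wildtype mice (SD, n = 3 mice each). The mice of the 2 genotypes overlapped for each gene. In edgeR's quasi-likelihood test on counts summed per mouse, Id2 differed by a log2 of 0.32 (SE 0.28) and Id4 by -0.26 (SE 0.35) in quiescent cells (adjusted p = 0.98 for both). There 0 of 770 genes passed (percent called 0), while 35 had an unadjusted p under 0.05 and DESeq2 called 0. Over all tagged cells the values were 0.27 (SE 0.30) for Id2, 0.68 (SE 0.72) for Id3 and -0.25 (SE 0.38) for Id4 (edgeR, adjusted p = 1.00 each), and 1 of 1109 genes passed (0.0902%), Ccl4, named here after its value was seen. Id1 in both, and Id3 in quiescent cells, had too few counts to be tested. Tagging differed between classes as given above, so tagged cells do not stand for all fresh cells. Genotype and library cannot be told apart, since each genotype is 1 library.

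In the RIP libraries, all 4 Id genes had few counts in every precipitate, and in the fit of all 8 libraries no difference between the wildtype CPEB4 precipitates and either control precipitate passed the test. Id3 had 80 and 50 counts in the wildtype CPEB4 precipitates, 59 and 80 in the libraries labelled CPEB4-/-, 54 and 70 in the IgG precipitates, and 1503 and 1799 in the inputs. Id2 had 42 and 35 counts in the wildtype CPEB4 precipitates, 38 and 36 in the libraries labelled CPEB4-/-, 12 and 36 with IgG, and 424 and 451 in the inputs. For Id1 the wildtype CPEB4 precipitates held 10 and 10 counts, the libraries labelled CPEB4-/- 5 and 10, IgG 5 and 6, and the inputs 201 and 148. For these 3 genes every precipitate lay below every input, both in CPM and on the TMM scale of the tests, where the gap was smallest for Id2 (7.01 in the second library labelled CPEB4-/-, 8.50 in the first input).

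Id4 was the rarest, with 15 and 9 counts in the wildtype CPEB4 precipitates, 2 and 5 in the libraries labelled CPEB4-/-, 3 and 10 with IgG, and 59 and 31 in the inputs. In CPM of the library these were 1.14 and 0.676 in the wildtype CPEB4 precipitates, 0.119 and 0.428 in the libraries labelled CPEB4-/-, 0.298 and 0.887 with IgG, and 3.38 and 1.95 in the inputs. In CPM its wildtype CPEB4 precipitates lay above both libraries labelled CPEB4-/- and overlapped those of IgG. On the TMM scale they were at 1.09 and 0.713, against 0.0958 and 0.974 in the libraries labelled CPEB4-/-, so that these groups overlapped. These are bulk samples, in which fewer cells of a type and less RNA per cell cannot be told apart.

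**Figure D5:**
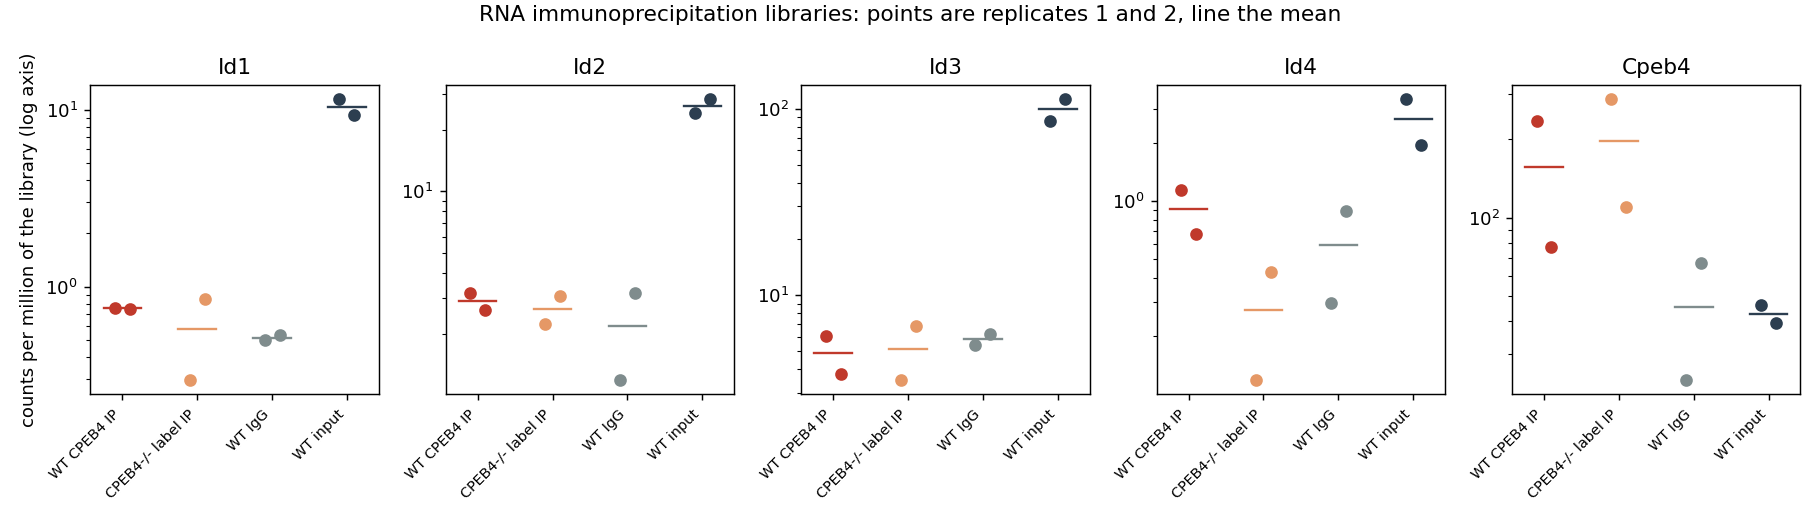
Levels of the Id genes and Cpeb4 in each of the 8 RIP libraries, in CPM of the library on log axes that differ between panels, 1 point per library, with a line at the mean of 2. For all 4 Id genes the inputs stand above every precipitate on this scale, from 3.38 and 1.95 CPM for Id4 to 86.1 and 113 CPM for Id3.

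Against the libraries labelled CPEB4-/-, the wildtype CPEB4 precipitates differed by a log2 of -0.17 (SE 0.88) for Id1, -0.50 (SE 0.63) for Id2, -0.85 (SE 0.66) for Id3 and 1.31 (SE 0.99) for Id4 (edgeR quasi-likelihood, adjusted p = 1 each). Of 17062 genes 0 passed here (percent called 0; 131 at an unadjusted p under 0.05, and 0 with DESeq2). The direction rests on labels that the Cpeb4 RNA counts could not check. When scaled by library totals instead, the values for Id1 and Id2 turned to 0.42 and 0.13, so the direction of both depended on the scaling.

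Against IgG, the log2 differences were -0.47 (SE 0.88) for Id1, -0.58 (SE 0.63) for Id2, -1.28 (SE 0.66) for Id3 and -0.40 (SE 0.89) for Id4, with adjusted p between 0.612 and 0.886 (edgeR). Again 0 of 17062 genes passed (percent called 0; 1319 at an unadjusted p under 0.05, and 14 with DESeq2). Id3 passed as lower when only the libraries of these 2 groups were fitted (adjusted p = 0.0455). Scaled by library totals, Id1, Id2 and Id4 were at 0.54, 0.40 and 0.59 and Id3 at -0.24, while the median of all genes moved to 1.02, so relative to that median all 4 stayed below 0.

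Against input, the log2 level of Id3 fell by 2.88 (SE 0.67, edgeR quasi-likelihood, adjusted p = 0.00584), Id1 by 2.29 (SE 0.75, adjusted p = 0.0265) and Id2 by 1.70 (SE 0.60, adjusted p = 0.0353) in the wildtype CPEB4 precipitates. Id4 was at -0.08 (SE 0.78, adjusted p = 0.938). With 3 of 4 Id genes lower, 54.7% of 17062 genes passed in either direction (9327), 4647 higher and 4680 lower (27.4%), and with scaling by library totals the split was 1057 higher and 7863 lower. On that scale Id1, Id2 and Id3 were at -3.77, -3.17 and -4.34 and Id4 at -1.55, and the median of all genes at -1.57. The calls of Id1 and Id2 were lost when any 1 of the 4 wildtype CPEB4 precipitate or input libraries was left out (edgeR adjusted p between 0.0609 and 0.142 over these), while that of Id3 was kept (0.0190 to 0.0469).

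IgG precipitates, which contain no CPEB4 antibody, gave values of the same sign against the same inputs for Id1 (-1.82, SE 0.80), Id2 (-1.12, SE 0.61) and Id3 (-1.60, SE 0.64), with edgeR adjusted p of 0.102, 0.172 and 0.0787, and 0.32 (SE 0.84, adjusted p = 0.785) for Id4. Here 0 of 4 Id genes passed, against 33.2% of all genes (5660, of which 3053, 17.9%, higher and 2607, 15.3%, lower). Id3 passed as lower with DESeq2 (adjusted p = 0.0465), and Id1 and Id3 passed when only these 4 libraries were fitted (edgeR adjusted p = 0.0252 for Id1 and 0.00319 for Id3). With scaling by library totals 420 were higher and 11103 lower. The 2 comparisons with input share their input libraries.

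With TMM scaling, 27.2% of all genes passed as higher and 27.4% as lower in the wildtype CPEB4 precipitates against input, a split that scaling by library totals changes as given above. Of 6 BMP receptors, 5 passed as higher and 0 as lower (median log2 2.52), and of 3 E proteins 2 passed as higher (median 2.38). Of 4 Hes and Hey repressors tested, 0 were higher and 4 lower (median -2.01), and of 3 bHLH lineage factors 2 were lower (median -2.71). In the IgG precipitates against input, where 17.9% of all genes passed as higher and 15.3% as lower, 4 BMP receptors and 2 E proteins passed as higher, and 2 Hes or Hey repressors and 2 bHLH lineage factors as lower. Over all genes the median log2 was -0.09 for CPEB4 precipitate and -0.13 for IgG precipitate against input.

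The mix of Id genes differed between the assays, which were counted separately and are set side by side without a test. Of all Id counts, Id2 held 51.2% in the BMP4 culture, 82.3% in all fresh APLP1-/- cells, 78.9% in all fresh wildtype cells, 30.4% in the EGF culture and 19.4% and 18.6% in the RIP inputs. Id3 held 27.8% in the BMP4 culture, 3.59% in fresh APLP1-/- cells, 3.28% in fresh wildtype cells, 62.6% in the EGF culture and 68.7% and 74.1% in the RIP inputs. Id1 held 14.5% in the BMP4 culture, against 0.953% in fresh APLP1-/- and 0.882% in fresh wildtype cells.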

How the data were processed

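The authors deposited whole-number counts: genes by cells for the 4 single-cell libraries, tags by cells for the hash tags, and genes by libraries for RIP. The mm10 build, Cell Ranger, Bowtie2 and SAMtools are named per the submitters' processing notes. The sources used here do not state versions, the step of each tool, or if fresh counts stand for reads or for molecules.

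Culture levels are summed counts with exact 95% Poisson, conditional binomial or Clopper-Pearson intervals. Cells were thinned without replacement to 4500 counts (cultures) or 200 (fresh). RIP libraries and sums per mouse were tested with edgeR 4.0.16 (filterByExpr, TMM, robust quasi-likelihood, Benjamini-Hochberg over all genes, threshold 0.05). One fit held all 8 RIP libraries. DESeq2 1.42.0 and other settings were alternatives. Fresh cells were given to mice at a minimum of 10 tag counts, with 75% or more from 1 of 3 tags. No doublet caller was run. Replicate numbers were not used as pairs: same-numbered deviations correlated between -0.42 and 0.34 over the 6 pairs of RIP groups and between -0.11 and 0.09 in fresh cells. Scripts were tested on simulated counts. The genes named are the 4 Id genes, Aplp1, Cpeb4, up to 3 members of each pathway list with the largest culture ratio, and up to 5 most alike genes per Id gene. Some genes under this rule are not reported here. The members and lists were chosen with earlier results of these data known.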

Additional observations from a re-analysis of the deposited data

How the results depend on the processing

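The culture log2 ratios kept their sign. With TMM scaling they were 4.02 for Id1, 3.62 for Id2 and 1.69 for Id3, as means of per-cell CPM 4.35, 3.70 and 2.03, and in cells without Mki67, Top2a or Cdk1 4.69, 3.63 and 1.84, with Id4 at 6.63. The BMP4 minus EGF share was 66.4 percentage points for Id1, 71.8 for Id2, 43.5 for Id3 and 45.8 for Id4. Thinned to 2000 counts it was 46.6 for Id1 and 26.5 for Id4, and unthinned 43.0 for Id2, 19.0 for Id3 and 84.0 for Id4. Unthinned, 84.2% of BMP4 and 0.355% of EGF cells held all 4 Id genes and 6.45% of EGF cells none. In the fresh class test, 2 added counts gave Id1 -2.76, Id3 -1.36 and Id4 0.81 (exact permutation, adjusted p = 0.0417 each), and no added counts gave Id1 30.9 CPM. Microglia held 0 counts of Id1, Id3 and Id4. The p-values with 2 added counts thus rest on those counts and on class depth, and give no direction. Without 1 mouse, Id1 ranged from -2.41 to -1.44, Id2 from -0.10 to 0.52, Id3 from -0.28 to 0.78 and Id4 from 2.63 to 2.90. Between genotypes, genes called over all tagged cells were 0 under DESeq2, a 90% tag share, 3 or more tag counts and the replicate block, and 0 to 1 without 1 mouse. In quiescent cells they were 1 with 3 or more tag counts and 0 to 1 without 1 mouse. Without 1 mouse, Id2 ranged from -0.22 to 0.43, Id3 from -0.11 to 1.12 and Id4 from -0.57 to 0.0686, and Id2 in quiescent cells from -0.0537 to 0.56. In RIP, genes called against the libraries labelled CPEB4-/- were 50 without the filter, 0 with the replicate block and 0 to 14 without 1 library. Against IgG they were 14 with DESeq2, 165 without the filter, 772 in a fit of those libraries alone and 0 with the replicate block. The crossed pairing of IgG with CPEB4 precipitates and of IgG with inputs, added after seeing the data, called 3710 and 8972 genes, and the same fits uncrossed 492 and 7165. Against input, 9129 were called with the block and 4978 to 6906 without 1 library. For IgG against input they were 5454 with the block, 11523 by library totals and 1123 to 2253 without 1 library. Wildtype CPEB4 precipitate against the libraries labelled CPEB4-/- ranged, without 1 library, from -1.33 to 1.64 for Id1, -1.25 to 0.68 for Id2, -1.65 to 0.79 for Id3 and -0.0905 to 3.16 for Id4, with Id1 at 0.42 and Id2 at 0.13 by library totals. Against IgG, Id2 ranged from -0.99 to 0.0591 and Id4 from -0.83 to 0.37, with 0.54, 0.40 and 0.59 for Id1, Id2 and Id4 by library totals. Id3 passed against IgG in a fit of those libraries alone (edgeR adjusted p = 0.0455) and with the crossed pairing (0.00232). Against input, Id4 ranged from -0.46 to 0.25, with 0.0015 under edgeR's RLE factors. For IgG against input Id4 ranged from -0.48 to 0.71, with -2.14 by library totals. There, Id3 passed with DESeq2, without the filter, by library totals, in the fit of those libraries alone and in both pairings of that fit (adjusted p from 3.12e-06 to 0.0465), Id1 in the same settings other than DESeq2 (0.000886 to 0.0386), and Id2 without the filter, by library totals and with the crossed pairing (0.00104 to 0.0279). The cause of these shifts was not tested. Depth limits the precipitates, with 2 to 80 counts per Id gene, and the microglia, with 11730 to 16723 counts.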
